A study of Mus musculus with 6 samples.

Results

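The nuclei described here are those of the blood vessels and of the connective tissue around them in the cerebellum. They were taken as every nucleus whose deposited SingleR cell-type label contains "Endothel", "Mural" or "Fibroblast", which gave 439 of 45473 nuclei. No label contains "Fibroblast", and the 439 nuclei carried 7 of the 24 labels in the files. Single nuclei of whole cerebella had been sequenced, with 1 library per mouse, from 3 Pcp2-ATXN1[82Q] mice (SCA1) and 3 C57Bl6 wild-type controls (WT), all 12 weeks old, to ask how a mutant protein made in Purkinje cells affects the other cells of the cerebellum. The transgene carries human ATXN1 with an expanded CAG repeat, and its Pcp2 promoter is active in Purkinje cells, so that vascular nuclei are not expected to carry the mutant transcript. The controls were sex-matched littermates according to the series' design text.

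Brain capillaries are tubes of endothelial cells joined by tight junctions, which form the blood-brain barrier and carry nutrients through dedicated transporters. Mural cells wrap this tube: pericytes lie on capillaries, and contractile smooth muscle cells lie on arterioles. Fibroblasts of the meninges and of the space around larger vessels lay down collagen and other matrix proteins. Flt1 encodes a receptor for vascular endothelial growth factor, Cldn5 the main claudin of the barrier's tight junctions, Rgs5 a regulator of G-protein signalling typical of pericytes, and Dcn (decorin) a matrix proteoglycan made by fibroblasts. On GRCm38 these genes lie at chr5:147561604-147726011 (Flt1, minus strand), chr16:18776847-18778262 (Cldn5, plus strand), chr1:169655501-169695813 (Rgs5, plus strand) and chr10:97479609-97518143 (Dcn, plus strand).

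The libraries held 3354 to 10897 nuclei and 18916647 to 98366627 unique molecular identifiers (UMIs, the count of distinct captured transcripts) each. The 439 vascular nuclei had a median of 7327 UMIs. WT mouse 2 was the shallowest library, and 18 of its 24 Endothelial_Stalk nuclei held under 3000 UMIs. Human ATXN1 had a UMI in 2 of 252 vascular nuclei of SCA1 mice and in 1 of 187 of WT mice, that is 0.794% and 0.535%. In granule neurons, which the promoter does not target, the shares were 0.546% and 0.329%, and the 2 UMIs of the SCA1 vascular nuclei are too few to tell from that background. WT mice carry no transgene, and the origin of their UMIs was not tested. Mouse Atxn1 had a UMI in 81.3% and 81.8% of the vascular nuclei. Across all nuclei, 254 barcodes occurred in more than 1 library, and 4 of the 439 vascular nuclei carried one of them.

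The labels divided the vascular nuclei into 3 kinds. Endothelial_Stalk was given to 136 nuclei, Endothelial_Tip to 278 and Mural to 25. Levels by label are counts per 1000000 of all UMIs of a label (CPM), pooled over the 6 mice, and are a description, since the labels were made from the same genes. In Endothelial_Stalk nuclei Flt1 stood at 3633 CPM with a UMI in 96.3% of nuclei, and Cldn5 at 1379 CPM, against 3.66 and 2.23 CPM in all nuclei outside these labels. Their leading genes by ratio to the other nuclei included Zfp366 (328 CPM), the organic anion transporter Slco1a4 (2194 CPM, in 95.6% of nuclei), the adhesion receptor Adgrl4 (1662 CPM) and the angiopoietin co-receptor Tie1 (197 CPM). These are genes of brain endothelium.

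Endothelial_Tip nuclei went against their name. Cldn5 stood at 1.6 CPM and Pecam1, an endothelial adhesion molecule, at 2.00 CPM, both below the level outside the vascular labels, and Tie1 and Erg had no UMI at all. Dcn stood at 466 CPM with a UMI in 60.8% of nuclei, and the collagen gene Col1a2 at 349 CPM in 80.9%. Their leading genes were Prdm6 (551 CPM), the amino acid transporter Slc6a20a (1774 CPM), Ranbp3l (2329 CPM), Cped1 (1573 CPM, in 94.6% of nuclei) and Tbx18 (116 CPM). A list of 16 fibroblast markers summed to 10531 CPM in these nuclei and to 454 CPM in Endothelial_Stalk nuclei. The transcription factor Bnc2 was at 1715 CPM. Flt1, at 92.3 CPM, lay above its 3.66 CPM outside the vascular labels. The 15 endothelial markers summed to 292 CPM in Endothelial_Tip nuclei, against 45.7 CPM outside the vascular labels and 15819 CPM in Endothelial_Stalk nuclei. The nuclei are called Endothelial_Tip below because that is their label, and the genes that lead them are those of fibroblasts.

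Mural nuclei carried Rgs5 at 1593 CPM in 84% of nuclei, the potassium channel subunit Abcc9 at 1220 CPM and the RNA Carmn at 895 CPM in 100% of nuclei. Of the 25, 20 had the label Mural.Acta2Rgs5.Kcnj8, in which the 12 pericyte markers summed to 18007 CPM and Acta2 (smooth muscle actin) had no UMI. The other 5 had the label Mural.Acta2Rgs5.Acta2, with Acta2 at 1192 CPM. Rgs5 did not separate the kinds, since it also stood at 1713 CPM in Endothelial_Stalk nuclei, with a UMI in 78 of the 136, all of which also held Flt1. Vtn (vitronectin, a pericyte product) had a UMI in 39 of them. Within Endothelial_Stalk, the labels Lrg1 (89 nuclei), Mgp (25) and Car4 (22) differed in a mural gene: Acta2 was at 516 CPM in Mgp, 10.9 CPM in Lrg1 and 0 in Car4. WT mouse 1 held 198996 of the 255846 Mgp UMIs, so the Mgp level is mostly that of 1 mouse.

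**Figure D1:**
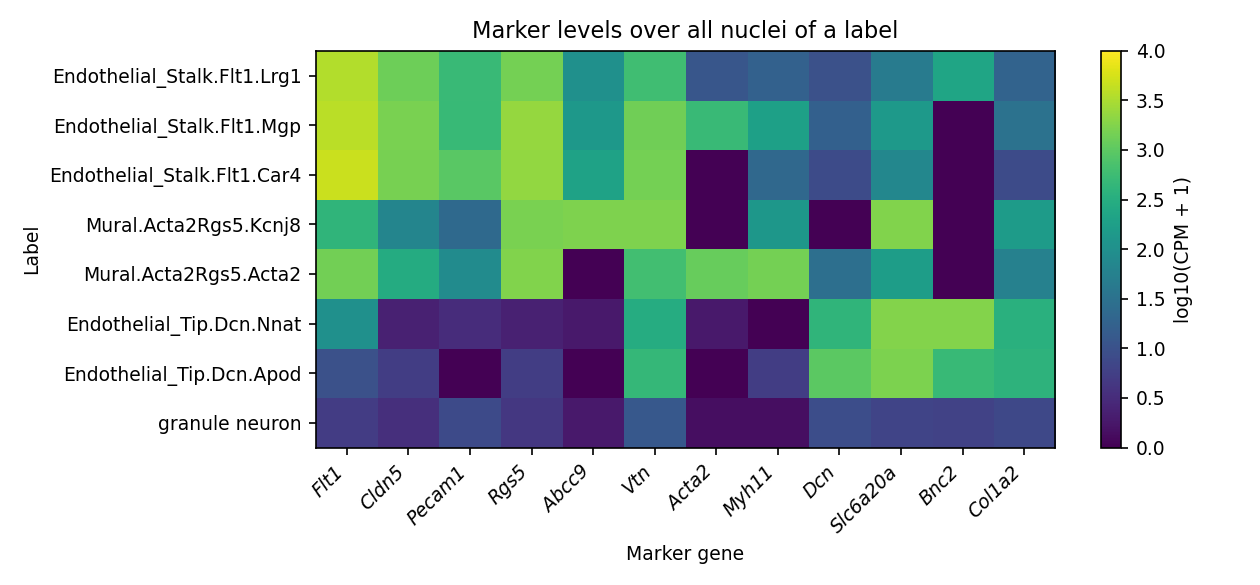
Levels of marker genes (columns) in the nuclei of each label (rows), pooled over the 6 mice, as CPM on a log colour scale. Flt1 and Cldn5 are high in the Endothelial_Stalk rows, Dcn in the Endothelial_Tip rows and Rgs5 in both Mural and Endothelial_Stalk.

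Each nucleus was then read on its own by which of 4 marker lists (endothelial, pericyte, smooth muscle, fibroblast) held most of its UMIs. In Endothelial_Tip the fibroblast list led in 277 of 278 nuclei and the pericyte list in 1. In Mural the pericyte list led in 24 nuclei and the smooth muscle list in 1. In Endothelial_Stalk the endothelial list led in 127 of 136, the pericyte list in 6 and the fibroblast list in 3. A further nucleus was led by the endothelial list but lay in a cluster with fewer than 5 vascular nuclei. The top label of a cluster played no part, and all vascular nuclei of WT mouse 3 lay in a cluster topped by a neuronal label. By list or by number in the cluster, 10 Endothelial_Stalk nuclei thus stood apart. Of these 10, 6 came from SCA1 mice and 4 from WT mice. They ranged from 2780 to 41633 UMIs and held 24.3%, 18.5% and 15.9% of the Endothelial_Stalk UMIs of SCA1 mice 1, 2 and 3. In the WT mice they held 6.77%, 4.77% and 5.94%.

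**Figure D2:**
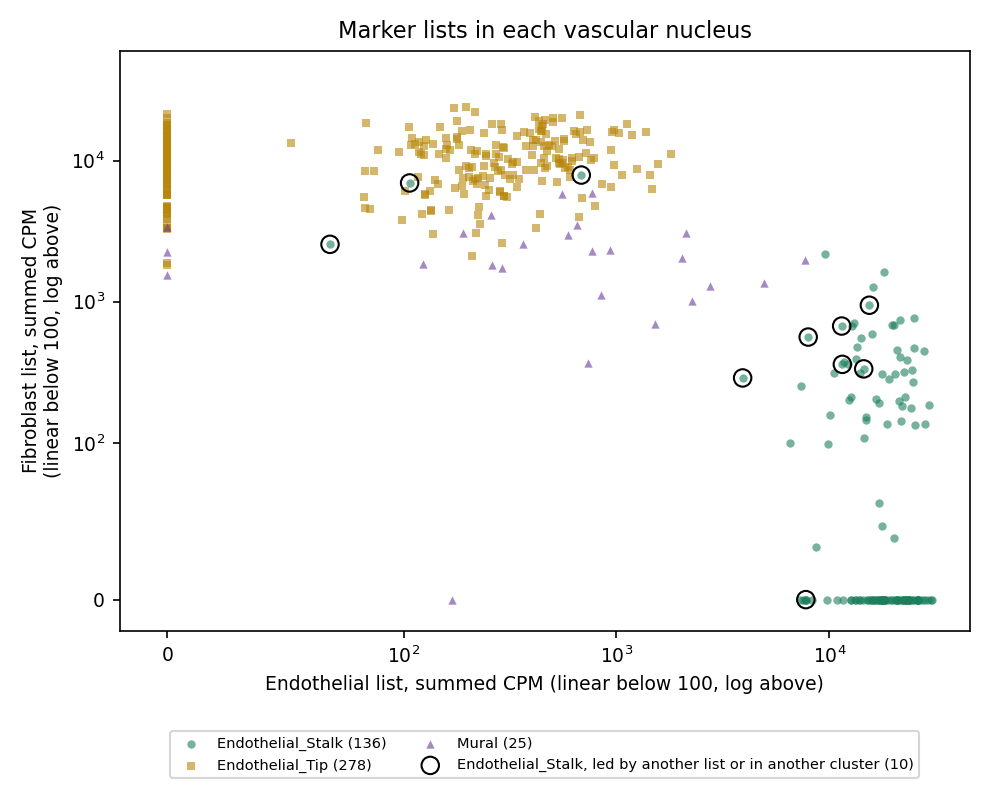
Summed level of the endothelial list (x axis) and of the fibroblast list (y axis) in each vascular nucleus, in CPM, linear below 100 and logarithmic above. Endothelial_Stalk (circles) and Endothelial_Tip (squares) occupy separate corners, and the 10 ringed Endothelial_Stalk nuclei include 3 that lie beside the Endothelial_Tip nuclei.

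The share of vascular nuclei did not differ detectably between genotypes. SCA1 mice 1, 2 and 3 had 0.753%, 1.39% and 1.02% of their nuclei in these labels. WT mice 1, 2 and 3 had 0.784%, 0.864% and 1.40%, so the groups overlapped almost wholly. The means were 1.05% ± 0.318 (SD, n = 3) and 1.02% ± 0.336 (SD, n = 3), with a two-sided exact permutation p of 1. The smallest p that 3 mice against 3 allow is 0.1. The exact Clopper-Pearson interval for SCA1 mouse 1 began at 0.599%, and such intervals cover counting error only. The difference, SCA1 minus WT, was -0.0312 percentage points in batch 1 and 0.0723 in batch 2.

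Endothelial_Stalk nuclei made up 0.193%, 0.513% and 0.161% of the nuclei of SCA1 animals against 0.306%, 0.358% and 0.328% of those of WT animals. The SCA1 mice spread more widely and lay on both sides of the WT mice (exact permutation p = 0.9). Endothelial_Tip nuclei made up 0.532%, 0.776% and 0.790% against 0.468%, 0.477% and 0.865% (exact permutation p = 0.8). Mural nuclei were too few to compare, with 3, 7 and 5 nuclei per SCA1 animal against 1, 2 and 7 per WT animal (exact permutation p = 0.9). As a share of vascular nuclei, Endothelial_Stalk was 25.6%, 37% and 15.7% against 39.0%, 41.4% and 23.4% (exact permutation p = 0.4). Within pairs of equal number, the SCA1 animal was lower in all 3, with differences of -13.4, -4.38 and -7.69 percentage points, and the exact sign-flip p was 0.25, the smallest that 3 pairs allow. The numbers come from the sample titles, which state no pairs. SCA1 mouse 2 (37%) lay above WT mouse 3 (23.4%) of the same inferred batch. In WT mouse 3 and SCA1 mouse 3 both kinds lay in 1 cluster, and in the other 4 mice mostly in separate clusters.

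**Figure D3:**
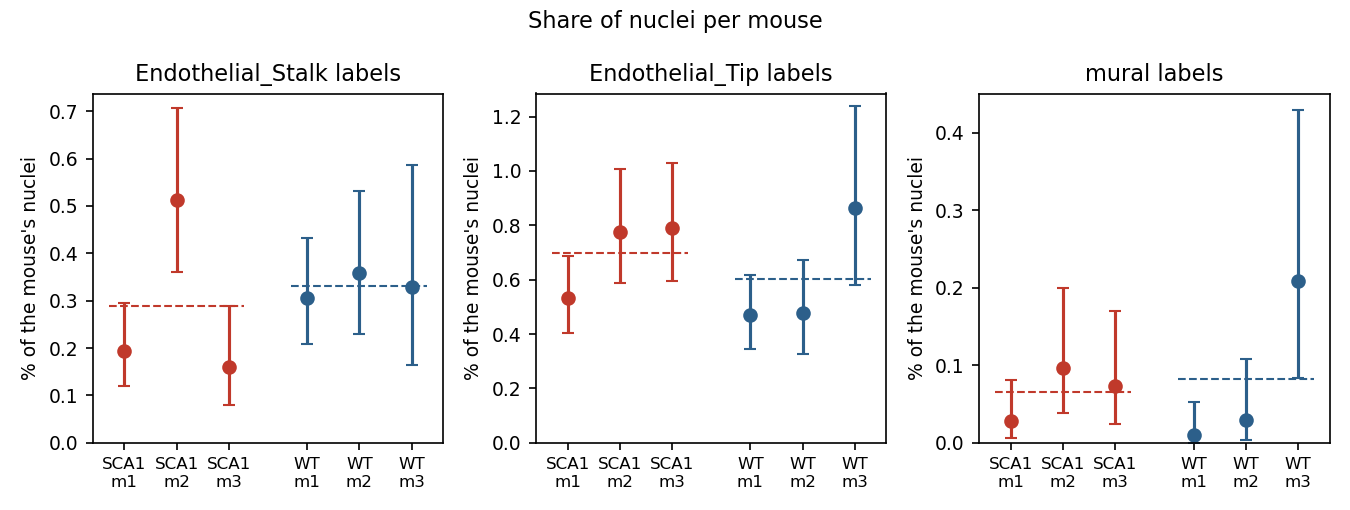
Percentage of all nuclei of a mouse that carry each label group, with 1 point per mouse and the exact 95% binomial interval of each point. The groups are Endothelial_Stalk, Endothelial_Tip and Mural. The SCA1 and WT points overlap in each, with Endothelial_Tip between 0.468% and 0.865%.

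Genotypes were compared on UMIs summed per mouse over the nuclei of a label, with edgeR's quasi-likelihood test, batch as a term and a threshold of 0.05 on p after Benjamini-Hochberg adjustment over all genes tested. Values of single genes per mouse are given as CPM after TMM scaling, over the genes tested in that comparison. Summed levels of a list are per 1000000 of all UMIs of the nuclei, without TMM scaling, and so stand on another scale. In Endothelial_Stalk nuclei 2 of 3532 genes were called, 0.0566%, both higher in SCA1: Sgcd, a sarcoglycan of the muscle membrane complex, and Gpc5, a glypican of the cell surface. Sgcd was at 549, 138 and 97.3 CPM in SCA1 mice 1, 2 and 3 and at 2.26, 0 and 0 in WT mice 1, 2 and 3. Its adjusted p was 0.00775 by edgeR's quasi-likelihood test. The SCA1 mice held 147 Sgcd UMIs, 118 of them in SCA1 mouse 1, and the WT mice 1. The ratio was 179.7 with a 95% counting interval of 31.7 to 7144, and 59.9 with the WT count set to a floor of 3. That interval pools the UMIs of a group and leaves out the spread between nuclei and mice. Gpc5 was at 339.7, 184 and 243 CPM against 11.3, 0 and 0 CPM, a log2 fold change of 5.11 with SE 0.64 (edgeR quasi-likelihood test, adjusted p = 0.021).

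Both differences came from a handful of nuclei. Sgcd had a UMI in 6 of the 69 SCA1 nuclei, and 141 of its 147 UMIs, 95.9%, were in nuclei among the 10 that stood apart. A pair of nuclei of SCA1 mouse 1, each the only vascular nucleus in a neuronal cluster, held 82 and 36 of them, and these nuclei were unusually large at 29922 and 41633 UMIs. The 3 nuclei led by the fibroblast list held 5, 10 and 8 Sgcd UMIs, no Flt1 UMI and 91, 32 and 83 Bnc2 UMIs, which were all 206 Bnc2 UMIs of the label. Gpc5 had a UMI in 8 SCA1 nuclei, with 88.4% of its 121 UMIs in the same 10.

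Without the 10 nuclei, a choice made after seeing these data, 0 of 2825 genes were called in Endothelial_Stalk nuclei by edgeR, with 122 at an unadjusted p under 0.05, and neither Sgcd nor Gpc5 passed the filter on low counts. With all 136 nuclei, DESeq2 called 24 genes where edgeR called 2. The protocadherin Pcdh7, not called, was at 330.4, 1004 and 1265 CPM against 49.7, 20.5 and 177 CPM, and 72.3% of its SCA1 UMIs were in the 10 nuclei. Of all genes tested, 4.5% had their 3 SCA1 values above the 3 WT values. Leaving out SCA1 mouse 1, SCA1 mouse 2 or WT mouse 1 left 0 calls, leaving out WT mouse 2 left 1, and leaving out SCA1 mouse 3 gave 8.

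Genes of endothelial identity lay lower in SCA1 Endothelial_Stalk nuclei without passing the test. All 15 members of the endothelial list were tested, 0 were called, all 15 had a negative log2 fold change and the median was -0.41, against -0.04 over all 3532 genes, of which 46.3% were positive. Flt1 was at 3635, 4475 and 4268 CPM in the SCA1 mice and at 5237, 6924 and 6567 CPM in the WT mice, so the groups did not overlap (log2 fold change -0.59, SE 0.41, edgeR adjusted p = 0.981). Erg, an endothelial transcription factor, was at 265, 308 and 328 CPM against 352, 717 and 663 CPM (log2 fold change -0.86, SE 0.39). All 3 SCA1 mice lay below all 3 WT mice for 4 of the 15, where 3.6% of all genes did so. Of the 15, 0 had an unadjusted edgeR p under 0.05, where 5.44% of all genes tested had one. Cldn5 overlapped, at 1708, 978 and 924 CPM against 2434, 2540.3 and 354 CPM, with WT mouse 3 the lowest of all.

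Several marker lists of neighbouring cells leaned the other way in the same Endothelial_Stalk sums, again without a call. Of the 10 granule neuron markers 6 were tested, 5 were positive, the median log2 fold change was 0.75 and 2 had an unadjusted edgeR p under 0.05, as 5.44% of all genes tested did. All 3 oligodendrocyte markers tested were positive (median 0.60), as were all 5 of Bergmann glia and astrocytes (median 0.14), whereas 1 of 7 Purkinje cell markers was (median -0.57). The granule neuron list summed to 1177 to 4118 CPM in the SCA1 mice and to 796 to 2800 CPM in the WT mice. The oligodendrocyte list summed to 653 to 1522 against 270 to 913 CPM, and the glial list to 475 to 1430 against 345 to 1309 CPM. These ranges overlapped. Within same-numbered pairs the SCA1 mouse was the higher in all 3 for each of these lists. For the granule neuron list, however, SCA1 mouse 2 (1177 CPM) lay below WT mouse 3 (1547 CPM) of the same inferred batch. The part of such transcripts in the endothelial levels was not tested.

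The list of barrier transporters and vesicle traffic genes followed the same pattern of levels. Of 23 barrier transporters and vesicle genes tested, 0 were called, 21 were negative and the median log2 fold change was -0.42. The drug efflux pump Abcb1a was at 1094, 1083 and 1167 CPM in the SCA1 mice and at 1503, 1905 and 2255 CPM in the WT mice (log2 fold change -0.74, SE 0.40). Cav1, the coat protein of caveolae, was at 214, 243 and 134 CPM against 291, 533 and 420.1 CPM (log2 fold change -0.98, SE 0.41). Slco1a4 was at 2019.7, 3786 and 2286 CPM against 2858, 3933 and 4931 CPM, ranges that overlap, with the SCA1 mouse lower in each pair.

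Lists of the signalling pathways of brain endothelium had negative medians. In the list of Wnt and beta-catenin genes, 17 were tested, 0 were called, 4 were positive and the median log2 fold change was -0.58. Fzd4, the receptor through which Norrin and Wnt ligands reach brain endothelium, was at 83.8, 105 and 146 CPM against 149, 246 and 287 CPM (edgeR quasi-likelihood test, adjusted p = 0.789). Tight and adherens junction genes had a median of -0.41 over 15 tested, and VEGF, angiopoietin and PDGF signalling genes -0.30 over 12. Capillary genes had a median of -0.62 over 10 and venous genes -0.54 over 5, whereas genes of endothelial activation and antigen presentation stood at -0.18 over 16. No gene of these lists was called. The lists share members, so their medians are not separate results. The junction list holds Cldn5, Cdh5, Pecam1 and Ptprb of the endothelial list, the VEGF list Flt1, Kdr, Tek and Tie1, and the transporter list Slco1a4. Capillary genes and transporters share members such as Mfsd2a and Tfrc.

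The summed level of the endothelial list also separated the genotypes. The endothelial list summed to 11762 to 17019.7 CPM in the SCA1 mice and to 17120.0 to 23095 CPM in the WT mice, with no overlap and an exact permutation p of 0.1, the smallest possible. Without the 10 nuclei the sums were higher in both groups, at 12857 to 20111 and 17666 to 24063 CPM, and the ranges overlapped. The SCA1 mouse was the lower in all 3 pairs of equal number, but SCA1 mouse 3 (20111 CPM) lay above WT mouse 2 (19442 CPM). The mean difference went from -5520 to -3697 CPM. Since 9 of the 10 were left out because another list exceeded the endothelial one, that choice itself moves these sums, and no p is given for the remaining sums. In these nuclei the endothelial list had 12 of 15 negative members and a median log2 fold change of -0.23, and the transporters 18 of 23 and -0.27. The Flt1 difference was then -0.43 (SE 0.43).

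The summed level of the pericyte list in Endothelial_Stalk nuclei also lay lower in each SCA1 mouse than in any WT mouse, which its single members did not. The pericyte list summed to 2626 to 3323 CPM in the SCA1 mice and to 3868 to 6873 CPM in the WT mice (exact permutation p = 0.1). Without the 10 nuclei, 6 of which were left out for their pericyte list, the ranges were 2184 to 3952 and 3368 to 6463 CPM and overlapped. All 6 members tested were negative, with a median log2 fold change of -1.72 and 0 called. For 0 of the 6 did all 3 SCA1 mice lie below all 3 WT mice. Vtn was at 614, 45.9 and 328 CPM against 1979.8, 1106 and 0 CPM, so WT mouse 3 stood apart from the other WT mice. Rgs5 was at 1638, 1056 and 888 CPM against 3445, 2397 and 442 CPM. Pdgfrb was at 51.2, 13.1 and 182 CPM against 332, 451 and 0 CPM. WT mouse 3 was thus the lowest of all mice for Vtn, Rgs5 and Pdgfrb, and its list sum of 3868 CPM rested mostly on other members. The part of these pericyte transcripts in the endothelial differences was not tested.

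The sub-labels of Endothelial_Stalk were not evenly spread over the mice. SCA1 mice 1, 2 and 3 had 0, 5 and 1 Mgp nuclei against 8, 11 and 0 for their WT counterparts, Car4 nuclei 1, 6 and 1 against 3, 9 and 2, and Lrg1 nuclei 20, 26 and 9 against 21, 4 and 9. Pooled over mice, the pericyte list summed to 7032 CPM in Mgp, 6573 in Car4 and 4037 in Lrg1, and the endothelial list to 15759.5, 19557 and 15259 CPM. The Mgp sums rest mostly on WT mouse 1. Within Lrg1 nuclei alone all 15 endothelial markers were negative, with a median log2 fold change of -0.35. So were the 6 pericyte markers tested, with -0.66, against 0.10 over all genes. There the pericyte median was smaller in size than the -1.72 of the whole label. Every SCA1 nucleus that stood apart carried the Lrg1 label, including those led by the fibroblast list, while some of the WT ones carried Car4 or Mgp. The Lrg1 fit kept all of these SCA1 nuclei, so it cannot show the endothelial levels without them.

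**Figure D4:**
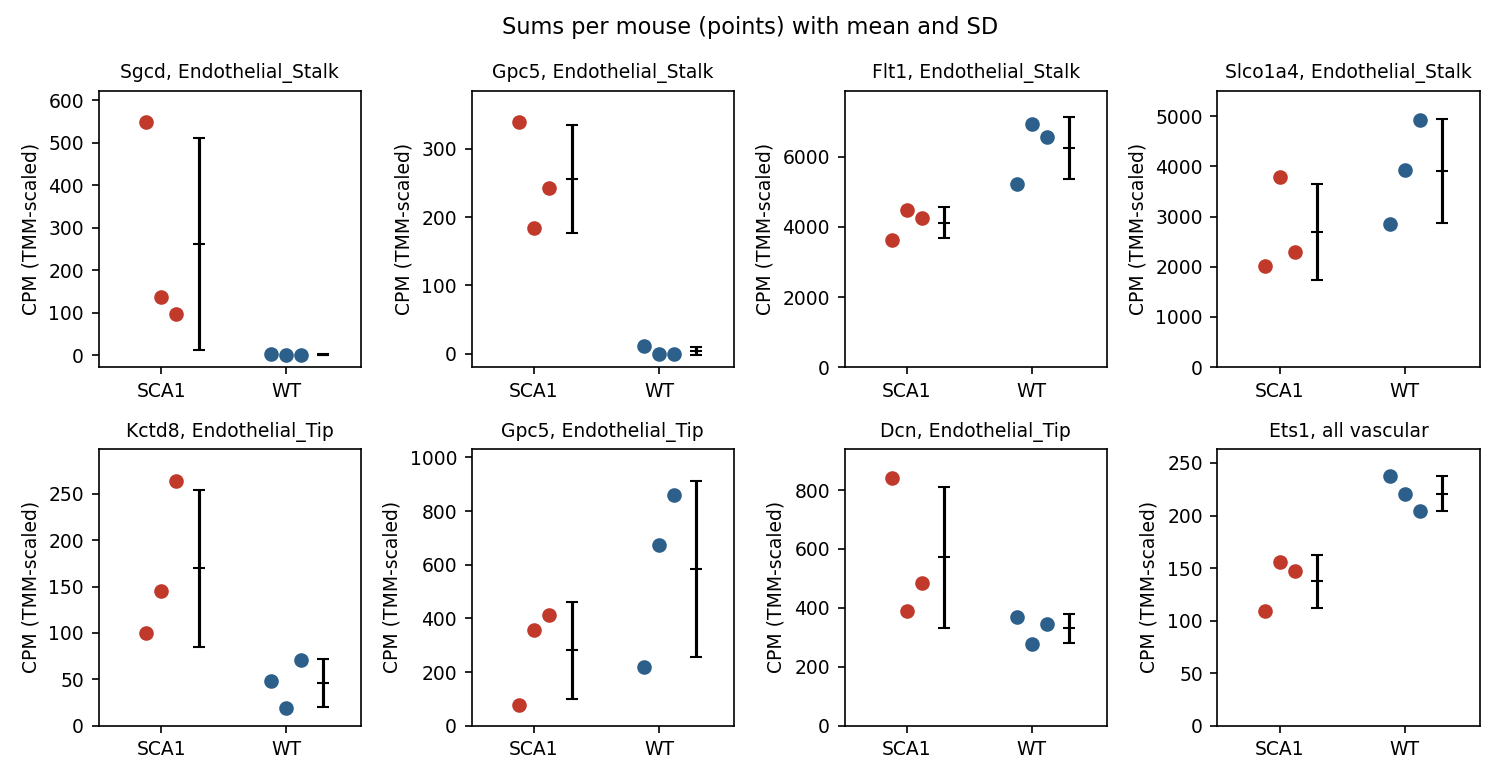
CPM per mouse (points; TMM-scaled, linear axis) for named genes in Endothelial_Stalk, Endothelial_Tip and all vascular nuclei, with the mean and SD of 3 mice beside each group. Sgcd and Gpc5 are near 0 in the WT Endothelial_Stalk nuclei, while Flt1 lies between 3635 and 4475 in SCA1 and between 5237 and 6924 in WT.

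In Endothelial_Tip nuclei, those with fibroblast genes, 0 of 7659 genes were called by edgeR and 0 by DESeq2, with 141 genes at an unadjusted edgeR p under 0.05. The 16 fibroblast markers were all tested, 9 were positive and the median log2 fold change was 0.03, against 0.00 over all genes. Their summed level was 9582, 9492 and 10983 CPM against 10533, 11944 and 12155 CPM, lower in the SCA1 mouse of each pair of equal number, with overlapping ranges (exact permutation p = 0.2). Dcn was at 841, 388 and 484 CPM in the SCA1 mice and at 369, 276 and 346 CPM in the WT mice, with no overlap (log2 fold change 0.73, SE 0.28, edgeR adjusted p = 1). Bnc2 was at 1188, 1322 and 2409 CPM against 1070.4, 2903 and 3259.6 CPM, and Cped1 at 1613, 1586 and 1911 CPM against 1292, 1753 and 2097 CPM. Bnc2 and Cped1 overlapped between genotypes.

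Matrix genes leaned upward in Endothelial_Tip nuclei without a call. Of 27 tested, 19 were positive and the median log2 fold change was 0.26. Fn1 (fibronectin) was at 241, 799 and 642 CPM against 207, 352 and 404 CPM (log2 fold change 0.69, SE 0.28). Of 15 genes of activation and antigen presentation, 12 were positive with a median of 0.24. Basement membrane genes stood at 0.09 over 20 tested and TGF-beta and BMP genes at -0.06 over 18.

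The smallest p-values among genes that separated the mice in Endothelial_Tip were spread over unrelated functions. Where the 3 SCA1 mice all lay above the WT mice (3.06% of genes), Kctd8, an auxiliary subunit of GABA-B receptors at chr5:69109285-69341679 on the minus strand of GRCm38, was at 99.8, 145 and 264 CPM against 48.2, 18.8 and 70.7 CPM. Nrp2, a co-receptor for semaphorins and VEGF, was at 104, 87.1 and 156 CPM against 62.7, 44 and 43.2 CPM. Cyp26b1, which degrades retinoic acid, was at 190.1, 71.2 and 62.6 CPM against 21.7, 25.1 and 47.1 CPM, with the highest value in SCA1 mouse 1. On the lower side (2.36% of genes), Dnajc6, a co-chaperone that uncoats clathrin vesicles, was at 254, 261 and 337 CPM against 567, 446 and 549.8 CPM (log2 fold change -0.88, SE 0.27). Acsl1, which activates long-chain fatty acids, was at 115, 135 and 146 CPM against 227, 264 and 212 CPM. The adjusted p of each was 1 by edgeR's quasi-likelihood test, after rounding.

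Mural sums were small, with 8267 to 33157 UMIs per mouse, and 185 genes passed the filter. None was called by edgeR or DESeq2, and 2 had an unadjusted edgeR p under 0.05. CPM values in Mural nuclei are per 1000000 UMIs in those 185 genes and so are high. Tns1, an adaptor between integrins and actin, was at 699, 892 and 1207 CPM in the SCA1 mice and at 2389, 2350.5 and 2272 CPM in the WT mice (log2 fold change -1.28, SE 0.47, edgeR adjusted p = 0.961). Luc7l2, a splicing factor, was at 3729, 2528 and 3249.7 CPM against 995, 1175 and 1613 CPM. Of the 185 genes, 3.78% had their 3 SCA1 values above the 3 WT values and 2.16% below. Of 7 pericyte markers tested, 5 were positive and the median log2 fold change was 0.16. Rgs5 ranged from 699 to 6871 CPM in SCA1 and from 2199 to 11361 CPM in WT. Leaving out WT mouse 3, which held 7 of the 10 WT Mural nuclei, gave 1 call among 219 genes.

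Over all 439 vascular nuclei edgeR called 0 of 9707 genes, with 263 at an unadjusted p under 0.05, and DESeq2 called 1. Over the 414 Endothelial_Stalk and Endothelial_Tip nuclei edgeR called 0 of 9650, with 240 at an unadjusted p under 0.05, and DESeq2 again called 1. These sums mix endothelial and fibroblast genes in the proportions of each mouse: the endothelial list had a median log2 fold change of -0.58 and the fibroblast list of 0.23. All 12 pericyte markers were tested, 11 were negative with a median of -1.05, and 7 had an unadjusted edgeR p under 0.05. The pericyte list summed to 1944 to 2249 CPM in the SCA1 mice and to 2892 to 4500 CPM in the WT mice, with no overlap. Fzd4 was at 29.2, 36.1 and 37 CPM in the SCA1 mice and at 69.3, 93.5 and 70 CPM in the WT mice. Apold1, an early response gene of endothelium, was at 22.2, 21.4 and 12.3 CPM against 51.8, 68 and 46.7 CPM, and Sox13 at 16.4, 34.5 and 45.3 CPM against 70.3, 85 and 90.5 CPM. Lrp1b, a receptor found in many neurons, was at 401, 168 and 235 CPM against 146, 29.7 and 17.5 CPM. These 4 were named because they separated the genotypes, so that is no result. Of all genes tested, 2.95% did so upward and 2.79% downward.

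Whether the genotype difference of vascular nuclei differed from that of granule neurons was tested in 1 model with a term for the mouse. The granule neuron sums included 125 nuclei with that label that lay inside clusters in which at least 30% of nuclei were vascular. The SCA1 animals held 45, 17 and 11 of them, and the WT animals 32, 3 and 17. Their fibroblast list summed to 262 to 5797 CPM per mouse, against 19.6 to 67.3 CPM in the other granule-labelled nuclei, and their endothelial list to 169.9 to 4223 CPM against 32.0 to 49.3 CPM. The fits were therefore repeated without them, a choice made after seeing these data. Over all vascular nuclei 5 of 16606 genes were called (edgeR, 0.0301%), 2 upward (0.012%) and 3 downward (0.0181%). The 3 downward genes were Ets1, Rassf3 and Cobll1. Ets1, an endothelial transcription factor at chr9:32636221-32757820 on the plus strand of GRCm38, was at 109, 156 and 147 CPM in SCA1 vascular nuclei and at 237, 221 and 204 CPM in WT ones. In granule neurons it was at 2.06, 1.54 and 2.40 CPM against 1.05, 0.615 and 0.562 CPM, a trace level. The difference of the differences was -2.15 with SE 0.30 (edgeR quasi-likelihood test, adjusted p = 0.00313). Tested alone, Ets1 had a log2 fold change of -0.71 (SE 0.28) in vascular nuclei and of 1.41 (SE 0.34) in granule neurons, neither called. The larger of the 2 was thus the rise in granule neurons. Within Endothelial_Stalk nuclei alone Ets1 was at 344, 479 and 620 CPM against 490, 840 and 929 CPM, with overlapping ranges but the SCA1 mouse lower in all 3 pairs of equal number (log2 fold change -0.63, SE 0.40, not called), and within Endothelial_Tip its log2 fold change was -0.12 (SE 0.34). The sums over all vascular nuclei also held a smaller proportion of Endothelial_Stalk nuclei in the SCA1 animal of each pair, and the part of this in the call was not tested. Rassf3 was at 58.5, 41.1 and 59 CPM against 97.7, 110.5 and 81.7 CPM in vascular nuclei and at 8.35, 11.4 and 11.2 CPM against 5.02, 3.62 and 1.91 CPM in granule neurons, and within Endothelial_Stalk at 163, 144 and 243 CPM against 203, 389 and 332 CPM, again lower in each pair with overlapping ranges. The log2 fold change of Rassf3 was -0.85 (SE 0.30) in vascular nuclei and 1.57 (SE 0.35) in granule neurons. For Cobll1 it was -0.86 (SE 0.31) and 0.68 (SE 0.21). All 5 calls remained without the 125 granule-labelled nuclei. No gene was called where a label had to be the top label of its cluster, and fewer were with nuclei of at least 3000 UMIs. The 3 downward calls remained without the nuclei led by another list, while Nrg1 and Adarb2, the 2 genes called in the upward direction, did not. Neither of these 2 passed the filter on low counts in the vascular nuclei themselves, only in granule neurons. With the replicate number as a block, 67 genes were called. Leaving out 1 mouse gave 6 to 75 calls, with 75 without SCA1 mouse 2, 64 without SCA1 mouse 3, 34 without SCA1 mouse 1, 16 without WT mouse 1 and 12 without WT mouse 3.

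For Endothelial_Tip nuclei against granule neurons 11 of 16374 genes were called, 0.0672%, 3 upward (0.0183%) and 8 downward (0.0489%). Kctd8 (1.77, SE 0.36) and Fgf13 (1.74, SE 0.31) had the largest upward differences on the log2 scale (edgeR quasi-likelihood test, adjusted p = 0.00326 and 0.000263). Fgf13, an intracellular fibroblast growth factor homologue, was at 39.5, 290.2 and 352 CPM against 55.4, 0 and 90.3 CPM in Endothelial_Tip nuclei, where the groups overlapped. In granule neurons it was at 136, 170.4 and 291 CPM against 141, 160.1 and 292 CPM. Kctd8 was at 772, 804 and 1341 CPM in SCA1 granule neurons against 695, 765 and 1533 CPM in WT ones. Its Endothelial_Tip values, 99.8, 145 and 264 CPM against 48.2, 18.8 and 70.7 CPM, lay well below these in every mouse. The part of granule neuron RNA in the Endothelial_Tip values of Kctd8 and Fgf13 was not tested. The 8 downward genes differed to unequal degrees within Endothelial_Tip itself, where none was called. Adam12, a metalloprotease, was at 806, 1208 and 1420.1 CPM against 967, 986 and 1618 CPM. In granule neurons Adam12 was at 3.70, 2.60 and 6.13 CPM against 2.71, 0.547 and 1.01 CPM. Sdk1 was at 623, 1322 and 1638 CPM against 1348, 1514 and 1355 CPM in Endothelial_Tip (log2 fold change -0.34, SE 0.34), where the groups overlapped. Its granule neuron values were 44.1, 39.9 and 87.8 CPM against 21.2, 15.0 and 41.2 CPM (log2 fold change 1.14, SE 0.42). Gpc5, higher in SCA1 Endothelial_Stalk nuclei, had lower values in SCA1 Endothelial_Tip nuclei, at 75.3, 356 and 413 CPM against 219, 672 and 860.05 CPM (log2 fold change -1.16, SE 0.27). Gm30613 was at 18.8, 21.1 and 0 CPM against 60.3, 56.5 and 82.5 CPM in Endothelial_Tip (log2 fold change -2.41, SE 0.68), with no overlap. It was the 1 call of the 11 that did not pass the filter on low counts in granule neurons. Without the 125 granule-labelled nuclei 5 genes were called, of which 4 were among the 11: Sdk1 (-1.47), Gpc5 (-1.17), Fgf13 (1.73) and Kctd8 (1.76). The fibroblast genes were not: Adam12 went to -0.74 and Bnc2 turned from -1.52 to 0.81 (edgeR adjusted p = 1 each). Pde5a and Hba-a2 also lost their calls, while their granule neuron log2 fold changes hardly moved, from -0.768 to -0.741 and from 0.194 to 0.195. Bnc2 in granule neurons had a log2 fold change of 1.34 with all nuclei of the label and of -0.89 without the 125. Bnc2 also turned, to 1.71 (edgeR adjusted p = 0.0173), where a label had to be the top label of its cluster. Under that rule the differences of Gpc5 and Prdm6 turned positive too, neither of them far from 0. All 11 calls remained without 2 Endothelial_Tip nuclei, 1 led by another list and 1 in a cluster with fewer than 5 vascular nuclei. Endothelial_Tip nuclei in larger clusters topped by a neuronal label were kept. DESeq2 called 1 gene, and leaving out SCA1 mouse 3 left 0, SCA1 mouse 1 gave 39 and WT mouse 1 gave 47.

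For Endothelial_Stalk nuclei against granule neurons 67 of 15471 genes were called, 0.433%, of which 62 were upward (0.401%) and 5 downward (0.0323%). Of the 62, 39 passed the filter on low counts only in granule neurons and not in Endothelial_Stalk nuclei, so they carry no weight as results on these nuclei, and 23 passed in both. Between Endothelial_Tip and Endothelial_Stalk 62 of 7568 were called, 0.819%, of which 61 (0.806%) had the higher genotype difference in Endothelial_Stalk and 1 (0.0132%) in Endothelial_Tip. Of the 61, 26 passed the filter only in Endothelial_Tip, 34 in both and 1 in neither alone, and the 1 in the other direction also passed in neither. Without the 10 Endothelial_Stalk nuclei, 1 gene was called against granule neurons, and 3 between Endothelial_Tip and Endothelial_Stalk whether or not the 2 Endothelial_Tip nuclei were left out as well. The 1 gene was Vtn (log2 difference -2.53). Ets1 and Rassf3, called downward with all nuclei (-1.94 and -2.16), went to -1.76 and -1.97 (edgeR adjusted p = 0.288 and 0.211), and the 10 nuclei held 9.09% and 12.99% of their SCA1 UMIs. The 3 were Dpp6 (-3.37), Kcnd2 (-3.49) and Ctnna2 (-3.80), which encode a potassium channel partner, a potassium channel and a neuronal catenin. Kcnd2 is abundant in granule neurons, at 9393 to 19700.5 CPM, and in Endothelial_Stalk it was at 6059, 1043 and 1216 CPM in the SCA1 mice against 3399.7, 41 and 88.4 CPM in the WT mice, with all 136 nuclei. The part of granule neuron RNA in these values was not tested. With the replicate number as a block 96 genes were called between Endothelial_Tip and Endothelial_Stalk. Without SCA1 mouse 1 or WT mouse 1 these counts were 128 and 134, and without SCA1 mouse 3, 96. The count against granule neurons was 34 without SCA1 mouse 2, 32 without WT mouse 2 and 42 without WT mouse 3. Between endothelial-labelled and Mural nuclei 0 of 4357 genes were called by edgeR, with 113 at an unadjusted p under 0.05.

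Batch was inferred from library numbers, and its term decided several of these calls. Without it edgeR called 0 genes in Endothelial_Stalk nuclei, for all vascular nuclei against granule neurons, for Endothelial_Tip against granule neurons and for Endothelial_Tip against Endothelial_Stalk, and 11 for Endothelial_Stalk against granule neurons.

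**Figure D5:**
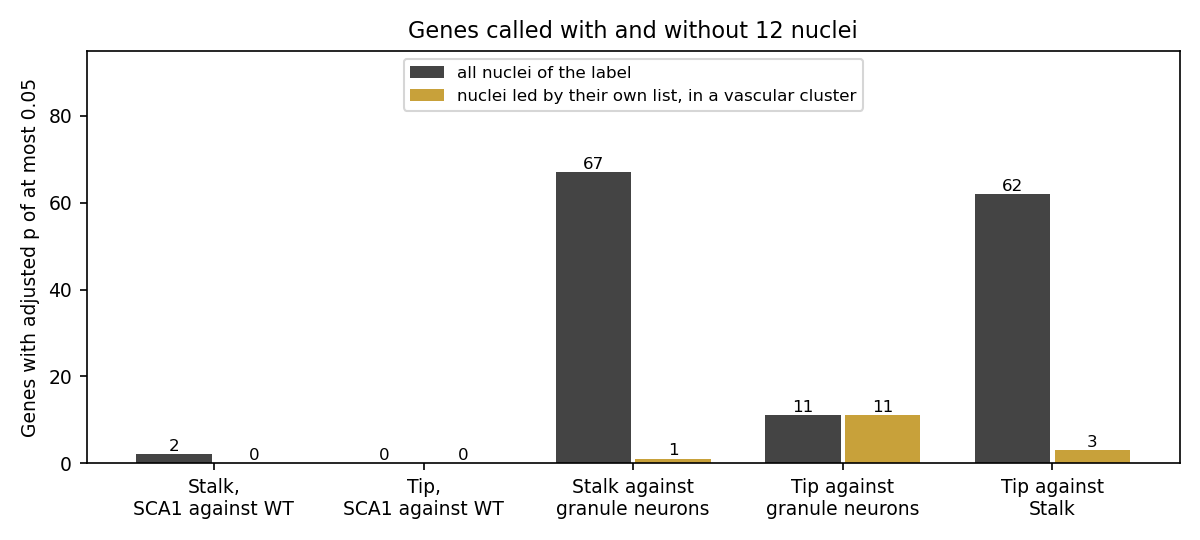
Number of genes with an adjusted p of at most 0.05 (bars from 0) in 5 comparisons, with all nuclei of a label and without 12 nuclei, 10 of Endothelial_Stalk and 2 of Endothelial_Tip. The counts fall from 67 to 1 and from 62 to 3 in the comparisons that use Endothelial_Stalk and stay at 11 for Endothelial_Tip against granule neurons.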

How the data were processed

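The authors deposited, for each mouse, raw UMI counts of every gene in every nucleus (whole numbers, not normalized) and a table with the Seurat cluster and SingleR label of each nucleus. The submitters' processing notes name Cell Ranger 4.0.0, 5.0.1 and 6.0.1, R 4.1.0, Seurat 4.0.4 and mm10. According to the study's methods, debris was removed with DIEM, with a higher UMI minimum in the first sequencing run. No doublet caller was run here.

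The label rule, the marker and gene lists and the genes to be named were chosen with earlier results of these data known. Named genes were the members of the marker lists, up to 10 called genes in each direction, the genes of smallest p that separated the mice where fewer than 5 were called, the 10 leading genes of each label, and the most abundant or smallest-p members of each gene list. Counts were summed per mouse and label and tested with edgeR 4.0.16 in R 4.3.3 (genotype and batch as terms, TMM, filterByExpr with minimum count 10 and total 15). Batch was inferred from library numbers, which put SCA1 mouse 1 and WT mouse 1 in batch 1. Differences between cell types were tested in the same way with a term for each mouse, so that the spread was shared by both types although granule neuron sums hold far more nuclei. Differences in share were tested by exact permutation, two-sided. SE is the log2 fold change divided by the root of the F statistic. Alternatives were DESeq2 1.42.0, limma 3.58.1, other scalings and filters, no batch term, a replicate block, other definitions of the nuclei and leaving out each mouse. Same-numbered mice deviated together in Endothelial_Stalk nuclei (r = 0.622, 0.118 and 0.341 across genes) and in all vascular nuclei (0.651, 0.151 and 0.526), but not all in Endothelial_Tip nuclei (0.502, 0.0801 and 0.445). Coordinates are from GENCODE on GRCm38.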

Additional observations from a re-analysis of the deposited data

Results flagged for a closer look

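The genotype difference of vascular nuclei differed from that of granule neurons for 5 genes by edgeR's test of the difference itself: Ets1, Rassf3, Cobll1, Nrg1 and Adarb2. For Ets1 and Rassf3 the log2 fold change was larger in size in granule neurons, where it was positive, than in vascular nuclei. Nrg1 and Adarb2 passed the filter on low counts only in granule neurons. They were also not called without the nuclei led by another list. For Endothelial_Tip nuclei against granule neurons the same test called 11 genes, with Sdk1 (log2 difference -1.49), Adam12 (-1.57) and Bnc2 (-1.52) among the downward ones. Sdk1 had a log2 fold change of -0.34 (SE 0.34) within Endothelial_Tip and of 1.14 (SE 0.42) in granule neurons. Without 125 granule-labelled nuclei of vascular clusters, Adam12 was not called and Bnc2 turned, to 0.81. For Endothelial_Stalk nuclei against granule neurons it called 67 genes, and between Endothelial_Tip and Endothelial_Stalk 62, of which 28 and 34 passed the filter on low counts in both kinds of nuclei. Without 10 Endothelial_Stalk nuclei these counts were 1 and 3. Of the SCA1 UMIs of Nrg1 in Endothelial_Stalk nuclei 98.2% were in these 10 nuclei, and of Adarb2 87.6%.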

How the results depend on the processing

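The differences in share (SCA1 minus WT, percentage points) changed sign easily: for all vascular nuclei 0.0378 became -0.166 with nuclei of at least 3000 UMIs and -0.0137 among nuclei outside the granule neuron label, for endothelial labels -0.129 and for Endothelial_Tip -0.0851 at 3000 UMIs, and for Endothelial_Stalk -0.0417 became 0.0444 where the label had to be the top label of its cluster. Leaving out 1 mouse gave -0.128 to 0.230 (all), -0.0957 to 0.186 (endothelial), -0.0534 to 0.0462 (Mural) and -0.154 to 0.0223 (Endothelial_Stalk). The top-label rule, which leaves WT mouse 3 with 0 vascular nuclei and SCA1 mouse 3 with 0 Endothelial_Stalk nuclei, gave 0.387 for all vascular and for endothelial nuclei and 0.343 for Endothelial_Tip (exact permutation p = 0.1 each). That is the smallest p that 3 mice against 3 allow, and the exact sign-flip test on pairs of equal number cannot go below 0.25, so these p-values say nothing about stability.

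Counts of called genes moved as follows. In all vascular nuclei DESeq2 gave 1 and no filter 42, in endothelial labels 1 and 44, and in Endothelial_Tip no filter gave 11 and the top-label rule 2. Mural gave 0 to 1 when a mouse was left out. In Endothelial_Stalk DESeq2 gave 24, no filter 124, a mean of 10 UMIs per mouse 4, limma 0, no batch term 0, the top-label rule 80 (2 mice against 2), at least 2 own markers 0, nuclei led by their own list 0, and leaving out a mouse 0 to 8. Against granule neurons, all vascular nuclei gave 14 (library size only), 64 (no filter), 11 (mean of 10 UMIs), 0 (no batch term), 67 (replicate block), 0 (top label), 2 (3000 UMIs), 3 (own list) and 6 to 75 (a mouse left out). Endothelial_Tip gave 1 (DESeq2), 7 (no filter), 0 (no batch term), 44 (top label), 0 (3000 UMIs), 5 (granule neurons outside vascular clusters) and 0 to 47. Endothelial_Stalk gave 10 (DESeq2), 11 (no batch term), 2 (top label), 37 (3000 UMIs), 34 (2 own markers), 1 (own list) and 32 to 79. Endothelial_Tip against Endothelial_Stalk gave 26 (DESeq2), 0 (no batch term), 96 (replicate block), 16 (top label), 26 (2 own markers), 3 (own list), 3 (the 10 nuclei alone left out) and 43 to 134. Endothelial against Mural gave 0 to 1. The replicate block moved no other count by over 1.5 times. The causes were not tested.

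Under the top-label rule the log2 difference turned for Nrg1 (-0.71, all vascular), for Bnc2 (1.71, adjusted p = 0.0173 by edgeR), Gpc5 (0.24) and Prdm6 (0.49) in Endothelial_Tip against granule neurons, and for Adamtsl3 (3.10), Bnc2 (0.58), Gm26740 (1.41), Gm6260 (6.34), Gm765 (6.41) and Slc47a1 (4.75) in Endothelial_Tip against Endothelial_Stalk. With 2 own markers it turned for Bnc2 (-1.11, Endothelial_Stalk against granule neurons), Gm765 (0.88) and Slc47a1 (0.50), and with nuclei led by their own list, added after seeing the data, for the same 3 (-1.05, 0.70 and 0.41). Leaving out the 10 nuclei alone turned Gm765 (0.70) and Slc47a1 (0.41), and granule neurons outside vascular clusters turned Bnc2 (0.81) and Prdm6 (0.0586) in Endothelial_Tip against granule neurons, both also added after seeing the data. The planned comparison of fibroblast labels was not run because no nucleus carries one, and the top-label rule left no Mural nucleus. Depth limits the Mural sums most, followed by Endothelial_Stalk in WT mice 2 and 3.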
